A study of Mus musculus with 3 samples.

Results

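Lyz1 and Lyz2 are the 2 lysozyme genes followed here, chosen by name as 2 of the 27998 genes in the count matrices. They were measured per cell in phagocytes of mouse Peyer's patches, the lymphoid follicles of the small intestine, by droplet single-cell RNA sequencing of 3' transcript ends. The R848 library came from 12 female C57BL/6Rj mice and 90 Peyer's patches, collected 9 h after intraperitoneal injection of 10 µg of R848, a ligand of TLR7. The CpG library came from 12 mice and 85 Peyer's patches, 9 h after 125 µg of CpG, a DNA ligand of TLR9, and the Control library from 12 untreated mice and 88 Peyer's patches, with no mock injection stated. In all groups CD11c-positive cells were enriched on beads and then sorted as cDC1, cDC2, LysoDC and macrophages. Mice were pooled into 1 library per group, so no difference between groups has a replicate check and no p-value is given. The intervals are 95% and cover counting error only.

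Lysozyme is a secreted antibacterial enzyme that cuts peptidoglycan, the wall polymer of bacteria. The mouse has a pair of neighbouring genes for it: Lyz2 (lysozyme M) is known as the macrophage gene and Lyz1 (lysozyme P) as the gene of Paneth cells, the antimicrobial secretory cells of the intestinal crypts. LysoDC, which are monocyte-derived dendritic cells of the Peyer's patch, and the macrophages of the same tissue are known for their lysozyme content.

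In the mouse genome (GRCm38, the assembly called mm10) both genes lie on chromosome 10 on the minus strand, Lyz1 (ENSMUSG00000069515) at chr10:117287797-117292868 and Lyz2 (ENSMUSG00000069516) at chr10:117277331-117282321. Each has 4 exons in the GENCODE annotation, 5475 bases separate them, and 0 other genes overlap either. The coding sequences are 95.1% identical and the 3' UTRs, which carry most 3' reads, are 95.6% identical. Of the 50-base words in the last 500 bases of the Lyz1 transcript, 17.7% also occur exactly in Lyz2, and 16.9% of those of Lyz2 occur in Lyz1. The sources used here do not say how reads were divided between so similar a pair, so a small exchange of counts between them cannot be told apart from a low level of the rarer one. The promoters are shown because the 2 genes were unequally expressed between cell types. The 250 bases before each RefSeq transcription start (GRCm38.p6, minus strand, chr10:117292869-117293118 for Lyz1 and chr10:117282273-117282522 for Lyz2) are 79.4% identical. Capitals mark matches, on either strand, to 4 motifs. The core recognised by ETS-family factors was searched as AGGAAG. The core for RUNX factors was searched as ACCACA, and the site for C/EBP factors as TTGCNNAA. A box like the TATA element was searched as TTAAATA.
Lyz1: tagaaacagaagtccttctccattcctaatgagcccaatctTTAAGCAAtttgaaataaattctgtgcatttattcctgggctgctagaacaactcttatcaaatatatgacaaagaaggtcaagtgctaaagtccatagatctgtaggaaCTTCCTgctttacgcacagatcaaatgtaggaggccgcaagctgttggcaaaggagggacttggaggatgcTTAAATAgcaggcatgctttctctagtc
Lyz2: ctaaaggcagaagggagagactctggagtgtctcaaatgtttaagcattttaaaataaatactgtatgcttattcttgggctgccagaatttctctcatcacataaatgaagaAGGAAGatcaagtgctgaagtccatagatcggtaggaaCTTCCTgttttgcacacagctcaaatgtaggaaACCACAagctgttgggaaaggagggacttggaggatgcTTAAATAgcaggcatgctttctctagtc
Both windows hold TTAAATA, starting 28 bases before the start, and AGGAAG on the reverse strand, at 99 bases. Lyz2 alone has a further AGGAAG at 137 bases and ACCACA at 66 bases, and Lyz1 alone has TTGCNNAA on the reverse strand at 209 bases. None of these matches overlap. Among 27025 mouse promoter windows of this length, AGGAAG occurs in 29.2%, ACCACA in 14.2%, TTGCNNAA in 9.55% and TTAAATA in 4.37%, and a match is a description of the letters, not evidence of binding.

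Cells were placed in 7 classes without any lysozyme count. A cell was C1q-positive if C1qa, C1qb and C1qc, the complement genes of tissue macrophages and LysoDC, summed to at least 20 per 10000 UMIs of the cell. It was Ccr7/Fscn1-high if these 2 maturation genes of dendritic cells summed to at least 5 per 10000, and it was split further by at least 1 UMI of Cd4 (in C1q-positive cells) or of Xcr1, a receptor of cDC1 (in C1q-negative cells). After filtering, 4898 R848, 4821 CpG and 5079 Control cells remained, with 43537067 to 46556726 UMIs deposited per library. Libraries shared 33 to 42 cell barcodes in pairs and 0 in all 3. The C1q-positive Ccr7/Fscn1-low cells numbered 562 Cd4-positive and 1121 Cd4-negative with R848, 376 and 815 with CpG, and 536 and 1488 in Control. Timd4, a receptor of long-lived macrophages, was at 48.2, 89.7 and 85.1 counts-per-million (CPM, UMIs scaled to the class total) in the R848, CpG and Control Cd4-positive cells, and at 2.87, 6.11 and 10.3 CPM in the Cd4-negative ones. Ccr2, the chemokine receptor of monocytes and their recent progeny, ran the other way, at 36.6, 65.9 and 82.5 CPM against 144, 217 and 254 CPM, and so did Il22ra2, at 408, 1071 and 1539 CPM against 945, 2989 and 3518 CPM. The Cd4-positive class thus carried more of a macrophage marker and the Cd4-negative class more of 2 of the 7 listed LysoDC markers. C1qa, also on that list, went the other way, at 7759, 10084 and 10533 CPM in Cd4-positive against 7426, 7981 and 7711 CPM in Cd4-negative cells. Cd300e was at 0 to 0.491 CPM and Ly6c2 at 0 to 2.52 CPM in both. The list also holds Lyz1 and Lyz2, whose levels are given below. A single Cd4 UMI is found more readily in a deeper cell, and the Cd4-negative class can hold both cell types. The median Cd4-positive cell was not the deeper one, at 12198, 12547 and 9752 UMIs with R848, CpG and in Control. The median Cd4-negative cell had 12639, 13781 and 10164 UMIs. Of 11 Paneth cell genes such as the defensin Defa24, the summed level was 6.39 to 9.26 CPM in these 2 classes and at most 15.6 CPM in any class, far below either lysozyme.

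Both lysozymes were among the most abundant transcripts of the C1q-positive cells. Lyz2 reached 45209 CPM in R848, 62390 CPM in CpG and 68566 CPM in Control Cd4-positive cells, and 34353, 46094 and 45457 CPM in the Cd4-negative cells. It ranked first among all genes in the CpG and Control classes, and at place 2 or 3 with R848. Lyz1 was at 11066, 15877 and 20248 CPM in the R848, CpG and Control Cd4-positive cells, and at 12073, 15619 and 17746 CPM in the Cd4-negative cells, at places 5 to 8. Together the pair made up 4.64% to 8.88% of all UMIs of these cells. Counting intervals were narrow: that of Lyz1 in Control Cd4-positive cells ran between 20128 and 20369 CPM. Levels here are UMI counts of 3' ends, and in sums over a class fewer expressing cells and less RNA per cell cannot be told apart.

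**Figure D1:**
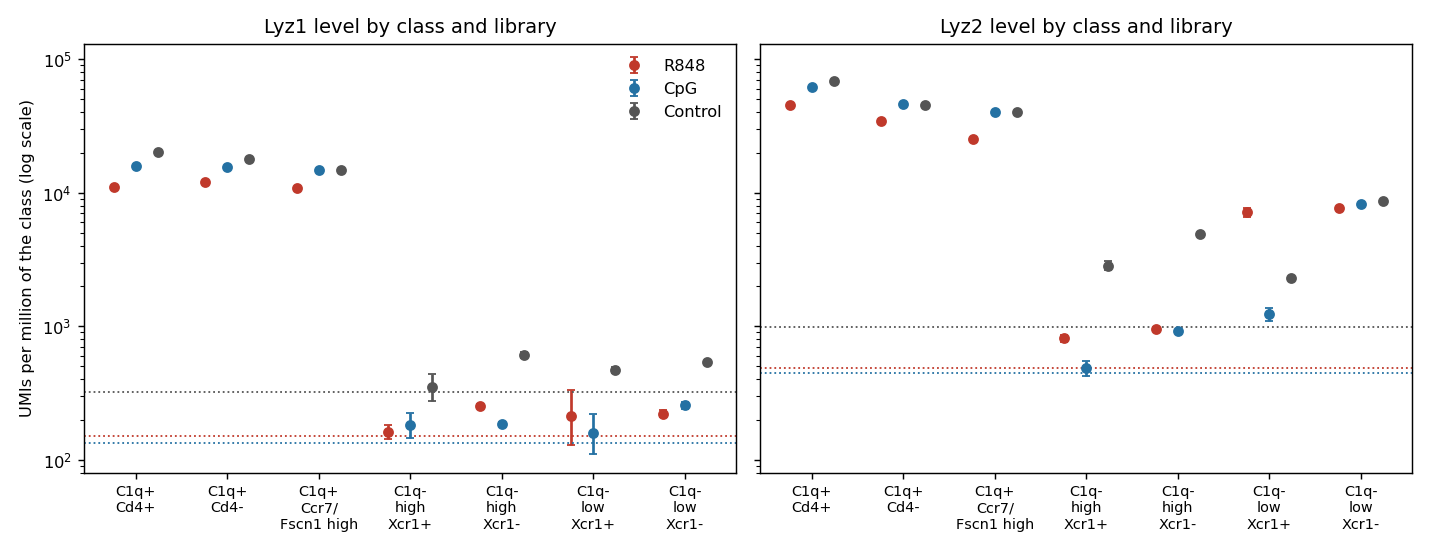
Levels of Lyz1 (left) and Lyz2 (right) in CPM of the class, on a log axis, for 7 classes and the R848, CpG and Control libraries; bars are exact Poisson 95% intervals and dotted lines the level estimated for free RNA in each library. C1q-positive classes stand at 10808 to 20248 CPM of Lyz1, C1q-negative classes at 158 to 608 CPM.

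Cd4-positive cells had more Lyz2 than Cd4-negative cells in every library, while Lyz1 differed less between them. The Lyz2 level in Cd4-positive cells was 1.32 times that in Cd4-negative cells with R848 (interval 1.31 to 1.32), 1.35 times with CpG (1.35 to 1.36) and 1.51 times in Control (1.50 to 1.51). For Lyz1 the same ratio was 0.917 with R848, 1.02 with CpG and 1.14 in Control, so its direction was not the same across libraries. C1q-positive cells that were also Ccr7/Fscn1-high (373, 97 and 72 cells with R848, CpG and in Control) had 25061, 40008 and 40147 CPM of Lyz2 and 10808, 14672 and 14821 CPM of Lyz1. Doublets weigh on that class: 84 of 457, 81 of 178 and 12 of 84 of its cells were removed as likely doublets, and its Jchain level, a plasma cell gene, was 1380 CPM with CpG against 5.84 CPM in Control.

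Cell by cell, Lyz2 formed a single high peak in C1q-positive cells and Lyz1 did not. More than 50 Lyz2 UMIs per 10000 were found in 100% of Cd4-positive cells of each library, and in 99.3%, 99.5% and 99.1% of Cd4-negative cells with R848, CpG and in Control. The median Cd4-positive cell held 443, 606 and 658 Lyz2 UMIs per 10000, and the median Cd4-negative cell 328, 450 and 432. Lyz1 was over 50 per 10000 in 69.6% of R848 (interval 65.6% to 73.4%), 75.0% of CpG (70.3% to 79.3%) and 78.7% of Control Cd4-positive cells (75.0% to 82.1%). In Cd4-negative cells the share was 78.5%, 84.4% and 83.8%. With every cell thinned to 3000 UMIs, leaving out shallower cells (5 R848, 1 CpG and 10 Control in the Cd4-positive class), these shares were 68.2%, 74.7% and 78.5% of Cd4-positive cells and 78.8%, 83.9% and 83.7% of Cd4-negative cells. The Lyz1-poor cells of the Cd4-positive class formed a low shoulder of the distribution: their median Lyz1 level per 10000 was 8.81 with R848, 11.1 with CpG and 13.9 in Control, against 143, 189 and 246 in the rest. These medians are above the 1.52, 1.32 and 3.21 per 10000 estimated for free RNA. The dividing value of 50 was set after the data were seen, and 24.9% of R848, 15.2% of CpG and 14.9% of Control Cd4-positive cells lay between 25 and 100 per 10000, so it cuts a range. No C1q-positive Ccr7/Fscn1-low cell had Lyz1 over 50 without Lyz2 over 50. The counts were 0 of 562, 376 and 536 Cd4-positive and 0 of 1121, 815 and 1488 Cd4-negative cells. They allow shares of at most 0.202% to 0.798%. In Cd4-positive cells the count could not be otherwise, since Lyz2 was over 50 in 100% of them. Only 8 R848, 4 CpG and 13 Control Cd4-negative cells had Lyz2 not over 50. The counts therefore cannot show whether Lyz1 goes with Lyz2. In C1q-positive Ccr7/Fscn1-high cells, Lyz1 over 50 without Lyz2 over 50 was found in 14 of 373 R848 cells (3.75%, interval 2.07% to 6.22%). It was found in 0 of 97 CpG and 0 of 72 Control cells of that class. It was also found in 4 of 2093 R848 C1q-negative Ccr7/Fscn1-high Xcr1-negative cells.

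**Figure D2:**
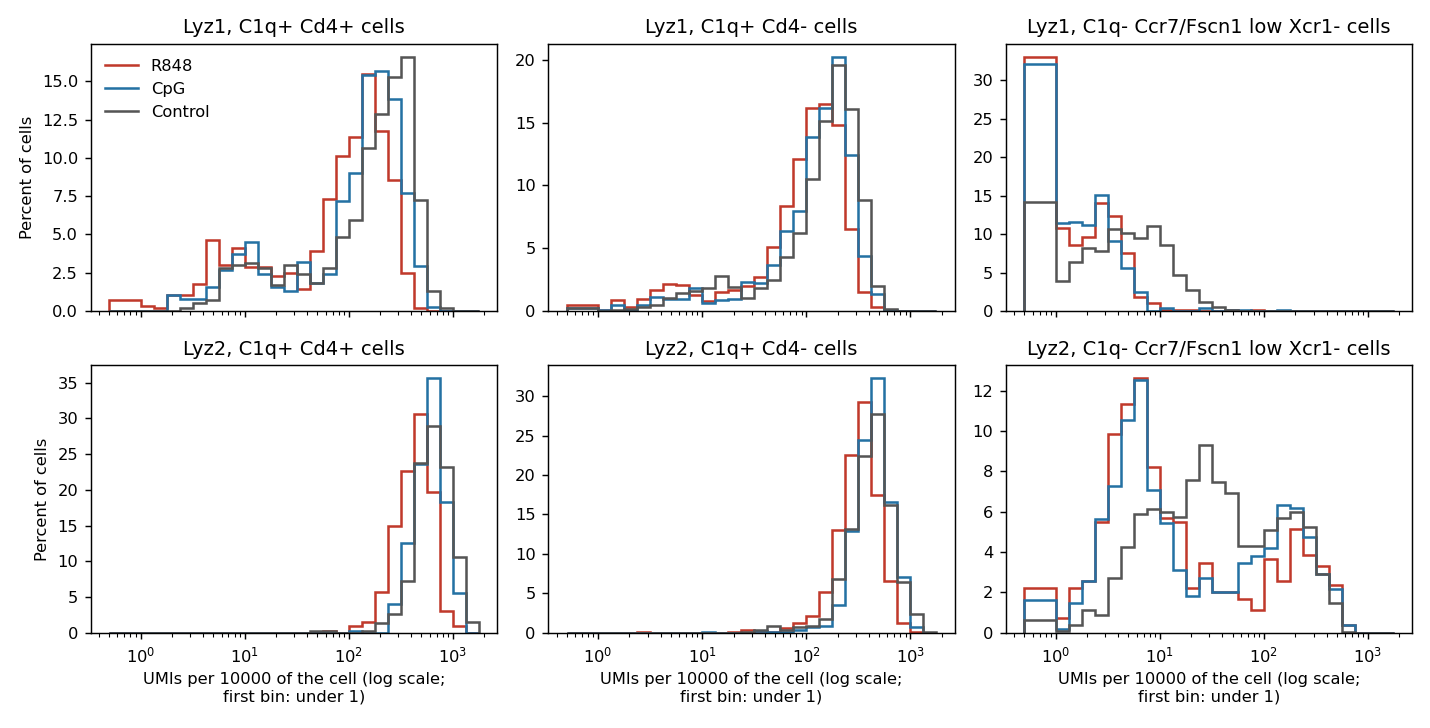
Distribution over cells of Lyz1 (top) and Lyz2 (bottom), as UMIs per 10000 of the cell on a log axis, against the percent of cells, in 3 classes of the R848, CpG and Control libraries. Lyz2 has 1 peak in C1q-positive cells, Lyz1 has a main peak over 100 and a low shoulder, and C1q-negative Ccr7/Fscn1-low Xcr1-negative cells have a second Lyz2 peak over 100 with no Lyz1 counterpart.

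Cells poor in Lyz1 were not poor in Lyz2. In the Cd4-positive class the median Lyz2 level of Lyz1-poor cells was 475, 725 and 718 per 10000 with R848, CpG and in Control, against 429, 589 and 642 in Lyz1-rich cells. In the Cd4-negative class it was 371, 515 and 517 against 321, 438 and 421. The medians were therefore higher in Lyz1-poor cells in all 6 pairs, while the interquartile ranges overlapped. C1q differed less, with medians of 176 to 253 per 10000 in Lyz1-poor and 182 to 254 in Lyz1-rich cells. Timd4 was higher in Lyz1-poor Cd4-negative cells, at 8.40, 15.4 and 37.6 CPM against 1.42, 4.52 and 5.83 CPM, on 16 to 79 UMIs each. The more abundant macrophage markers differed less in these Cd4-negative cells. Apoe was at 0.971, 0.943 and 0.959 times its level in Lyz1-rich cells with R848, CpG and in Control. Cx3cr1, at 1.06, 0.923 and 1.11 times, and Mertk, at 0.958, 1.04 and 1.24 times, went either way. Ms4a7 was higher in each library, at 1.05, 1.21 and 1.37 times. In Lyz1-poor Cd4-positive cells these markers and Timd4 were all above their level in Lyz1-rich cells. Timd4 was at 1.91, 1.21 and 1.67 times, Mertk at 1.17, 1.16 and 1.55 times and Cx3cr1 at 1.004, 1.10 and 1.23 times. Apoe was at 1.04, 1.05 and 1.09 times and Ms4a7 at 1.01, 1.03 and 1.08 times. Il22ra2, which encodes a soluble receptor that binds interleukin 22 and is a listed LysoDC marker, was lower in Lyz1-poor cells of both classes, at 0.644 to 0.811 times its level in Lyz1-rich cells. Genes of the MHC class II pathway were lower too: H2-Aa was at 0.524 to 0.834 times and Cd74, the invariant chain, at 0.464 to 0.882 times. Ccr2 went either way, at 0.774 to 1.05 times. The monocyte gene Ly6c2 and the Fc receptor gene Fcgr1 rested on 0 to 25 UMIs in Lyz1-poor Cd4-negative cells, with Ly6c2 at 2.69, 13.5 and 0 CPM against 0.177, 0.631 and 0 CPM in Lyz1-rich cells, and Fcgr1 at 8.40, 14.8 and 4.28 CPM against 3.72, 1.79 and 0 CPM. H2-Aa and Cd74 were picked after likeness over cells had been computed. In Cd4-negative cells they held places 1 and 2 of 3638 genes by mean Spearman rho with the Lyz1 percent of lysozyme UMIs. Their lower level in Lyz1-poor Cd4-negative cells is therefore no separate finding. They were not picked from Cd4-positive cells, where H2-Aa was at 0.524 to 0.685 times and Cd74 at 0.464 to 0.704 times. Neither the marker ratios nor the split was tested.

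The balance of the pair gave the same picture. Lyz1 supplied 19.7%, 20.3% and 22.8% of lysozyme UMIs in R848, CpG and Control Cd4-positive cells. In Cd4-negative cells it supplied 26.0% (interval 25.9% to 26.1%), 25.3% (25.2% to 25.4%) and 28.1% (28.0% to 28.2%). Both classes had their highest share in Control, and Cd4-negative cells exceeded Cd4-positive cells in each library. Among single cells the share was spread from under 5% in 17.9% to 24.4% of Cd4-positive and 9.84% to 12.7% of Cd4-negative cells, to 37.6% or more in the top 10% of each class. Between cells of the Cd4-positive and Cd4-negative classes, the variance of the share was 43.6 to 97.9 times what binomial sampling of each cell's lysozyme UMIs gives. In the lowest 10% of Cd4-positive cells the share was at most 1.24% with R848, 1.23% with CpG and 1.69% in Control. So in those cells at most that share of lysozyme counts can be Lyz2 reads assigned to Lyz1. Across the Cd4-negative cells, which share a library and its depth, Lyz1 and Lyz2 per 10000 had weakly negative Spearman rho of -0.07 over 1121 R848, -0.15 over 815 CpG and -0.13 over 1488 Control cells. By the mean rho, Lyz2 stood at place 3612 of 3639 genes for Lyz1, where the lowest gene, Cfl1, had -0.19, and Lyz1 at place 3521 for Lyz2.

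**Figure D3:**
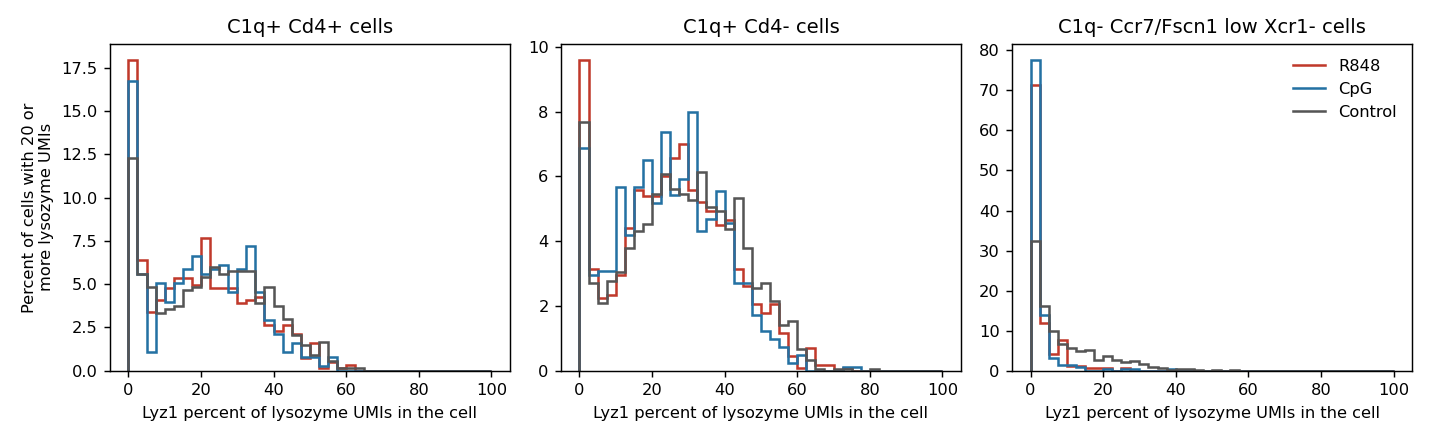
Lyz1 as a percent of the lysozyme UMIs of a cell (x axis) against the percent of cells (y axis), for cells with at least 20 lysozyme UMIs in 3 classes of the R848, CpG and Control libraries. C1q-positive cells spread widely around 20% to 28% with a peak next to 0, and most C1q-negative Ccr7/Fscn1-low Xcr1-negative cells lie under 5% with R848 (83.2%) and CpG (91.5%), against 48.5% in Control.

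On the CPM scale both lysozymes were lower in C1q-positive cells with R848 than in Control, and the difference with CpG was smaller. In Cd4-positive cells the level with R848 was 0.547 times Control for Lyz1 (interval 0.542 to 0.552, log2 ratio -0.87) and 0.659 times for Lyz2 (0.656 to 0.662, log2 ratio -0.60). In Cd4-negative cells it was 0.680 times for Lyz1 (log2 ratio -0.56) and 0.756 times for Lyz2 (log2 ratio -0.40). None of these passed 2-fold, which 2.07% of the 5028 genes tested did downwards in Cd4-positive and 1.55% of 4830 in Cd4-negative cells. A lower ratio than that of Lyz1 was seen in 3.06% of genes tested in Cd4-positive and 5.28% in Cd4-negative cells, and for Lyz2 in 6.32% and 9.19%. With CpG the log2 ratio to Control was -0.35 for Lyz1 and -0.14 for Lyz2 in Cd4-positive cells, and -0.18 and 0.02 in Cd4-negative cells. At least 2-fold lower were 0.68% of the 4851 genes tested in Cd4-positive and 0.666% of 4658 in Cd4-negative cells. R848 stood below CpG for both genes in both classes, with log2 ratios for Lyz1 and Lyz2 of -0.52 and -0.46 in Cd4-positive and -0.37 and -0.42 in Cd4-negative cells, again short of 2-fold. Between these ligands 0.567% of 4938 and 0.504% of 4758 genes tested were at least 2-fold lower with R848, and 1.82% and 1.22% at least 2-fold higher. Both comparisons with Control share the Control library. Other genes of these classes were lower with R848 as well: Apoe was at 28732 CPM against 50748 CPM in Control in Cd4-positive and 13915 against 21858 CPM in Cd4-negative cells, Il22ra2 at 408 against 1539 and 945 against 3518 CPM, and Ccr2 at 36.6 against 82.5 and 144 against 254 CPM. Ms4a7 and Mertk, both macrophage markers, were higher, at 941 against 732 and 95.3 against 54.7 CPM in Cd4-positive cells. The C1q-positive cells in the Ccr7/Fscn1-high gate numbered 373 with R848 against 72 in Control. The part of class make-up in the lysozyme differences was not tested.

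The direction of the CpG values depended on the scale. C1q-positive cells of the treated libraries were deeper: the median Cd4-negative cell had 12639 UMIs with R848 and 13781 with CpG, against 10164 in Control. Counted as mean UMIs per cell, Cd4-positive cells held 138 Lyz1 UMIs with R848, 205 with CpG and 201 in Control, and 566, 806 and 681 Lyz2 UMIs. Cd4-negative cells held 154, 213 and 178 Lyz1 UMIs and 437, 630 and 457 Lyz2 UMIs. On this scale R848 stayed below Control for both genes, at 0.688 and 0.830 times in Cd4-positive and 0.862 and 0.957 times in Cd4-negative cells, while CpG was above Control at 1.02 and 1.18 times in Cd4-positive and 1.20 and 1.38 times in Cd4-negative cells. In C1q-positive Ccr7/Fscn1-high cells the R848 direction of Lyz1 depended on the scale too, at 0.729 times Control from CPM and 1.11 times per cell, while Lyz2 was at 0.624 and 0.949 times. More RNA per cell and deeper capture cannot be told apart here.

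**Figure D4:**
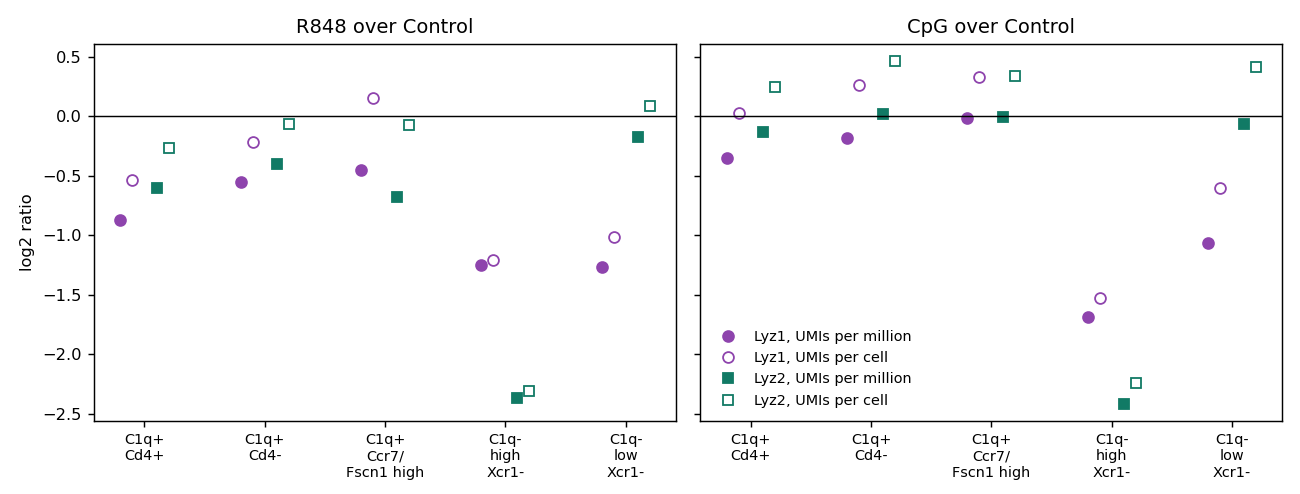
Log2 ratios of R848 over Control (left) and CpG over Control (right) for Lyz1 (circles) and Lyz2 (squares) in 5 classes, from CPM (filled) and from mean UMIs per cell (open). In C1q-positive Cd4-positive and Cd4-negative cells the R848 values lie below 0 on both scales, whereas the CpG values of Lyz1 in both, and of Lyz2 in Cd4-positive cells, lie below 0 from CPM and above 0 per cell.

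Outside the C1q-positive cells Lyz1, summed over a class, was within 2-fold of the level that free RNA would give. That level was set per library from C1q in the Xcr1-positive C1q-negative cells, at 2.21% of the library mean with R848, 2.01% with CpG and 3.31% in Control, and it can be too low, since the gate leaves out cells with much C1q. Lyz1 in the 4 C1q-negative classes was 1.06 to 1.93 times that level, at 158 to 608 CPM. Lyz2 ranged more widely, from 1.08 times in CpG Ccr7/Fscn1-high Xcr1-positive cells to 18.5 times in CpG Ccr7/Fscn1-low Xcr1-negative cells. A single free source would hold the 2 genes in the library's own ratio, with Lyz1 at 23.8%, 22.8% and 24.6% of lysozyme UMIs with R848, CpG and in Control.

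The Ccr7/Fscn1-low Xcr1-negative C1q-negative cells had Lyz2 with hardly any Lyz1. Their Lyz2 level was 7654 CPM with R848, 8282 CPM with CpG and 8659 CPM in Control, in 547, 551 and 2044 cells, which placed it 7th or 8th among all genes. Lyz1 was at 222, 255 and 540 CPM, so it supplied 2.82%, 2.99% and 5.87% of lysozyme UMIs. Lyz2 over 50 per 10000 without Lyz1 over 50 was found in 24.9% of R848 cells (interval 21.3% to 28.7%), 34.7% of CpG cells and 37.2% of Control cells, and both together in 0.183%, 0.363% and 0.196%. After thinning to 3000 UMIs, Lyz2 was over 50 in 25.1%, 34.4% and 37.8%. The log2 ratio of Lyz2 to Control was -0.18 with R848 and -0.06 with CpG, and that of Lyz1 -1.26 and -1.07. Lyz1 stood at 1.46, 1.93 and 1.68 times its free level with R848, CpG and in Control. Counted as mean UMIs per cell, Lyz2 was above Control, at 1.06 times with R848 and 1.33 times with CpG. Lyz1 stayed below on that scale, at 0.494 and 0.659 times. At least 2-fold lower in this class were 0.675% of 5040 genes tested with R848 and 0.78% of 4998 with CpG. The class was mixed, and its make-up differed between libraries. The 8 cDC2 markers summed to 1537, 1617 and 1442 CPM, most of it Plet1 (689, 704 and 465 CPM) and Ltb (687, 779 and 635 CPM), while Cd209a was at 24.1, 1.80 and 122 CPM and Mgl2 at 27.8, 13.4 and 75.9 CPM. The 5 plasma cell markers summed to 2208, 1763 and 363 CPM, with Jchain alone at 1365, 1235 and 124 CPM. B cell markers summed to 858, 447 and 183 CPM. Epcam, an epithelial adhesion gene, stood at 206, 237 and 314 CPM. It made up most of the 220, 242 and 321 CPM summed over the 8 listed enterocyte markers, so the others were low. The part of cells with these markers in the lysozyme levels and in their ratios to Control was not tested. Values for parts of the class are given among the other observations.

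In Ccr7/Fscn1-high Xcr1-negative C1q-negative cells, mature dendritic cells by their gate, Lyz2 was 947 CPM with R848 and 914 CPM with CpG, against 4902 CPM in Control (2093, 2902 and 475 cells). The log2 ratios to Control were -2.37 and -2.42, and a lower ratio was seen in 0.531% and 0.626% of the genes tested. At least 2-fold lower here were 8.23% of 4520 genes with R848 and 7.47% of 4629 with CpG. Lyz2 was over 50 per 10000 in 1.48% of R848 cells (interval 1.01% to 2.10%), 1.59% of CpG cells (1.16% to 2.11%) and 21.9% of Control cells (18.3% to 25.9%). Against the free RNA level it stood at 1.95, 2.04 and 4.97 times. Lyz1 was 252 and 186 CPM against 608 CPM, with log2 ratios of -1.25 and -1.68, and at 1.66, 1.401 and 1.89 times its free level. The log2 ratio of R848 to CpG was 0.05 for Lyz2 and 0.43 for Lyz1, where 3.55% of 4367 genes were at least 2-fold lower with R848 and 1.12% higher. Some other markers were lower too: Il22ra2 was at 29.4 and 53.2 CPM with R848 and CpG against 512 CPM in Control. The 8 cDC2 markers summed to 132 and 100.2 CPM against 555 CPM. The 10 macrophage markers summed to 736 and 691 CPM against 1366 CPM, with at most 1 marker of either list at 0. That sum includes the C1q genes, which the gate limits and which set the free RNA level. Of the others, Apoe was at 413 and 393 CPM against 845 CPM, and Timd4 at 26.0 and 13.6 CPM against 66.5 CPM. Ms4a7 was at 16.2 and 72.1 CPM against 23.7 CPM. The gate genes differed as well: Ccr7 was at 3489 and 4263 CPM with R848 and CpG, against 1745 CPM in Control, and Fscn1 at 3767 and 5155 CPM against 1636 CPM. Their part in the Lyz2 difference was not tested.

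In Xcr1-positive cells lysozyme levels varied with the library and with few cells in some. The 438 Control Ccr7/Fscn1-low cells, which carried the cDC1 genes Clec9a and Naaa at 172 and 1007 CPM, held 2300 CPM of Lyz2 (2.33 times free) and 471 CPM of Lyz1 (1.47 times). Only 11 R848 and 22 CpG cells fell into that class, so their 7125 and 1226 CPM of Lyz2 rest on few cells. In the Ccr7/Fscn1-high Xcr1-positive cells Lyz2 was at 809, 485 and 2849 CPM in 191 R848, 58 CpG and 26 Control cells, and Lyz1 at 161, 181 and 351 CPM.

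Over the 18 groups of class and library with at least 50 cells, the genes most like Lyz1 among 3971 were Adamdec1, a metalloprotease of gut macrophages, with Pearson r of 0.995, then Slc1a2 (0.992), Prkar1b (0.988), Dst (0.988) and Slc20a1 (0.987). Those most like Lyz2 were the TGF-beta receptor gene Tgfbr1 (0.990), Sdcbp (0.987), Gm5547 (0.986), Rnf130 (0.984) and Sirpa (0.982), an inhibitory receptor of myeloid cells. Lyz2 came at place 156 for Lyz1 and Lyz1 at place 235 for Lyz2, with r of 0.917 between them. The groups share libraries and differ mainly in C1q, so these are descriptions. Over Cd4-negative C1q-positive cells, Lyz2 followed Apoe, the lipid carrier, with mean rho over libraries of 0.431, and the lysosomal proteases Ctsz (0.384) and Ctsd (0.382), then B2m (0.375) and Itm2b (0.353). It ran against Tpt1 (-0.26), Eef1a1 (-0.25) and Tmsb10 (-0.24, but 0.015 with R848). Lyz1 had no gene above a mean rho of 0.215, that of Cst7, a cysteine protease inhibitor. These rho values rest on 815 to 1488 cells that share a library and depth.

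Few of the other listed genes of antibacterial defence passed 2-fold in C1q-positive cells. None of 8 lysozyme relatives reached 20 CPM in any library compared, so Lyz1 and Lyz2 were the only lysozyme-type genes measured. With R848, at least 2-fold higher were 5.45% of all genes tested in Cd4-positive and 3.79% in Cd4-negative cells. Of the peptidoglycan recognition genes 4 of 16 were measured, and 1 was higher in Cd4-positive cells, Nod1, a cytosolic peptidoglycan sensor (59.2 CPM with R848 and 25.9 CPM in Control), and 0 in Cd4-negative cells. Of 9 other antimicrobial genes measured, Wfdc17 was higher in both classes (790 against 375 CPM and 246 against 48.2 CPM) and Slc11a1, a metal transporter of phagosomes, in Cd4-negative cells (22.6 against 7.96 CPM). Of the myeloid transcription factors, 10 and 11 measured, Maf was higher in both classes, at 65.3 against 18.6 CPM and 43.4 against 9.49 CPM. In these 2 classes 0 of the listed genes measured were 2-fold lower with R848, and 0 passed 2-fold either way with CpG, where 3.81% and 2.98% of all genes tested were higher. List medians were 0.10 to 0.45 with R848 and 0.06 to 0.35 with CpG on the log2 scale, above the values of Lyz1 and Lyz2. The median gene stood at 0.14 and 0.09 with R848 and at 0.06 and 0.03 with CpG. Between the ligands, Wfdc17 was at least 2-fold higher with R848 in both classes and Maf in Cd4-positive cells.

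Of the same lists, several genes of the NADPH oxidase and of peptidoglycan handling were at least 2-fold lower in treated Ccr7/Fscn1-high Xcr1-negative C1q-negative cells. Ncf4, an oxidase subunit, was at 55.9 CPM with R848 and 37.3 CPM with CpG, against 218 CPM in Control. Cybb, the catalytic subunit, was at 37.6 and 51.5 CPM against 115 CPM. Pglyrp1, a peptidoglycan recognition protein, was at 19.5 and 11.6 CPM against 108 CPM, and Slc15a3, a transporter of bacterial peptides, at 19.9 and 26.0 CPM against 78.0 CPM. With CpG, Slc15a4 (7.68 against 23.7 CPM), Slc46a3 (60.0 against 132 CPM) and the transcription factor Tfeb (13.0 against 39.8 CPM) were lower as well. In all, 2 of 5 measured peptidoglycan genes were lower with R848 and 4 of 5 with CpG, with list medians of the log2 ratio of -0.66 and -1.18. Of 7 other antimicrobial genes measured, 2 were lower with R848, with a list median of -0.0092. Of all genes tested in this class, 8.23% were at least 2-fold lower with R848 and 7.47% with CpG. Higher with CpG were Wfdc17 (325 against 71.5 CPM) and Lcn2, a siderophore-binding protein, which had 39.0 CPM against 0 UMIs in Control, at least 34.0-fold higher by a limit of 3 counts over that class (1.15 CPM). Of all genes, 7.32% were at least 2-fold higher with R848, where 0 listed genes were, and 9.38% with CpG.

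In the C1q-negative Ccr7/Fscn1-low Xcr1-negative class, 2 of 9 antimicrobial genes measured were higher with R848, the neutrophil genes S100a8 (80.2 against 1.28 CPM in Control) and S100a9 (38.1 against 0.451 CPM). Both are also on the neutrophil marker list, whose other members were low: Cxcr2 was at 6.55 against 3.23 CPM, Csf3r at 5.84 against 4.59 CPM and Mmp9 at 3.74 against 4.66 CPM, and Retnlg, Ly6g and Ngp were at 0 in both libraries. Ets1 was higher with R848 (22.7 against 6.62 CPM), Wfdc17 higher with CpG (193 against 69.8 CPM) and Runx1 lower with CpG (17.8 against 49.3 CPM). Of all genes tested in this class, 2.86% were at least 2-fold higher with R848 and 2.86% with CpG, and 0 of 7 measured peptidoglycan genes passed 2-fold with either ligand.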

How the data were processed

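What was deposited is raw UMI counts, 1 matrix per library and 1 library per group. Cell Ranger 2.0.0 and mm10 are the tool and build named in the submitters' processing notes. The sources used here do not name the annotation release.

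Cells with at least 500 genes and at most 10% mitochondrial UMIs were kept. Likely doublets, scored against simulated ones, were removed at the rate expected for the cell number: 209 R848, 202 CpG and 225 Control cells. UMIs were summed per class and library (88841 to 18109676 UMIs) and scaled to CPM. Log2 ratios had 5 CPM added to both levels. Genes reaching 20 CPM in either library of a pair were set against a 2-fold limit, with no p-value. Intervals are exact Poisson for levels, conditional binomial for ratios and Clopper-Pearson for shares, at 95%, and cover counting error only. Limits for a count of 0 use 3 counts. UMIs are counted once per molecule.

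Both genes, the gates and the 4 gene lists were chosen with earlier results of these data known. Besides Lyz1 and Lyz2, named genes were the 5 most like each (log2 of CPM + 5 over groups of at least 50 cells, for genes reaching 50 CPM; Spearman rho over cells, with the 3 lowest, for genes detected in 20% of cells) and list genes past 2-fold in size order, at most 4 per list and class. A listed item is not reported here. Marker genes were named from lists chosen in the same way. The Lyz1 value of 50 per 10000, the parts of classes, the likeness over C1q-negative cells, the H2-Aa and Cd74 values and the UMIs-per-cell scale were added after the data were seen. So was the motif TTAAATA.

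Genes were located in GENCODE M21 on GRCm38. Promoters are RefSeq sequences of GRCm38.p6, found for both genes, and GENCODE begins Lyz2 upstream of its RefSeq start. Code was written in Python 3.11.15 with numpy 2.4.6, scipy 1.17.1, pandas 2.3.3, scikit-learn 1.9.0 and biopython 1.88, and was tested on simulated data.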

Additional observations from a re-analysis of the deposited data

Results flagged for a closer look

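Lyz2 with CpG against Control lay on opposite sides of 0 in different classes, with a log2 ratio of 0.02 in C1q-positive Cd4-negative cells. In C1q-positive Cd4-positive cells the ratio was -0.14, a difference of -0.16 between the classes. In C1q-negative Ccr7/Fscn1-low Xcr1-negative cells it was -0.06, a difference of -0.084. In C1q-negative Ccr7/Fscn1-high Xcr1-negative cells it was -2.42, a difference of -2.44. With 1 library per group these differences were not tested. As mean UMIs per cell, Lyz2 with CpG was above Control in both C1q-positive classes, at 1.38 times in Cd4-negative and 1.18 times in Cd4-positive cells. It was also above Control in C1q-negative Ccr7/Fscn1-low Xcr1-negative cells, at 1.33 times. In C1q-negative Ccr7/Fscn1-high Xcr1-negative cells it stayed below, at 0.211 times.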

How the results depend on the processing

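For the 8 log2 ratios and 3 Lyz1 shares of the C1q-positive Cd4-positive and Cd4-negative cells, 148 values were computed under 14 other settings; the shares have no value for the median over cells or the UMIs per cell. Of these, 16 could not move by construction (the shares under another pseudocount or denominator, and Cd4-negative cells under the Cd4 gate), 63 stayed within counting error, 66 moved beyond it and 3 changed sign. The changed signs all came from mean UMIs per cell, a scale added after the data were seen, for CpG over Control: log2 ratios of 0.029 for Lyz1 and 0.24 for Lyz2 in Cd4-positive and 0.26 for Lyz1 in Cd4-negative cells. The other values on that scale were 0.46 for Lyz2 with CpG in Cd4-negative cells, -0.54 and -0.27 with R848 in Cd4-positive, and -0.22 and -0.063 in Cd4-negative cells. The R848 ratios of these 2 classes stayed below 0 under the alternatives run. The other moved values, log2 ratios to Control and the Lyz1 percent of lysozyme UMIs in Cd4-negative cells, were these. With a C1q gate of 10 per 10000, log2 ratios were R848 Cd4-negative -0.44 for Lyz1 and -0.30 for Lyz2, CpG Cd4-negative -0.068 for Lyz1 and 0.12 for Lyz2, and the Lyz1 share was 27.8% (Control). With a C1q gate of 40, log2 ratios were R848 Cd4-negative -0.57 for Lyz1 and -0.42 for Lyz2, CpG Cd4-negative -0.20 for Lyz1 and 0.0088 for Lyz2. With a Ccr7 and Fscn1 gate of 2, log2 ratios were R848 Cd4-positive -0.77 for Lyz1 and -0.62 for Lyz2, CpG Cd4-positive -0.33 for Lyz1 and -0.15 for Lyz2, R848 Cd4-negative -0.52 for Lyz1 and -0.39 for Lyz2, CpG Cd4-negative -0.14 for Lyz1 and 0.026 for Lyz2, and the Lyz1 share was 25.9% (R848) and 25.5% (CpG) and 27.7% (Control). With all deposited barcodes, log2 ratios were R848 Cd4-positive -0.85 for Lyz1 and -0.58 for Lyz2, CpG Cd4-positive -0.32 for Lyz1 and -0.11 for Lyz2, R848 Cd4-negative -0.52 for Lyz1 and -0.38 for Lyz2, CpG Cd4-negative -0.16 for Lyz1 and 0.048 for Lyz2. With doublets kept, log2 ratios were R848 Cd4-positive -0.85 for Lyz1 and -0.59 for Lyz2, CpG Cd4-positive -0.32 for Lyz1 and -0.11 for Lyz2, R848 Cd4-negative -0.52 for Lyz1 and -0.38 for Lyz2, CpG Cd4-negative -0.15 for Lyz1 and 0.049 for Lyz2. With lysozymes and gate genes out of the denominator, log2 ratios were R848 Cd4-positive -0.93 for Lyz1 and -0.66 for Lyz2, CpG Cd4-positive -0.37 for Lyz1 and -0.15 for Lyz2, R848 Cd4-negative -0.58 for Lyz1 and -0.43 for Lyz2. With cells thinned to 3000 UMIs, log2 ratios were R848 Cd4-positive -0.61 for Lyz2, CpG Cd4-positive -0.40 for Lyz1, R848 Cd4-negative -0.53 for Lyz1 and -0.42 for Lyz2, CpG Cd4-negative 0.014 for Lyz2, and the Lyz1 share was 24.9% (CpG) and 27.6% (Control). With the median over cells, log2 ratios were R848 Cd4-positive -0.995 for Lyz1 and -0.57 for Lyz2, CpG Cd4-positive -0.12 for Lyz2, R848 Cd4-negative -0.39 for Lyz2, CpG Cd4-negative -0.20 for Lyz1 and 0.060 for Lyz2. With a Ccr7 and Fscn1 gate of 10, log2 ratios were R848 Cd4-positive -0.61 for Lyz2, R848 Cd4-negative -0.42 for Lyz2, and the Lyz1 share was 26.2% (R848). With at least 2 Cd4 UMIs, log2 ratios were R848 Cd4-positive -0.57 for Lyz2. With free RNA taken away, log2 ratios were R848 Cd4-positive -0.61 for Lyz2, CpG Cd4-positive -0.14 for Lyz2. Causes were not tested. No paired analysis was possible because each group has 1 library. The number of libraries, not depth, limits every comparison between groups, and the 11 R848 and 22 CpG Xcr1-positive Ccr7/Fscn1-low cells give no usable level.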

Other observations

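Within the C1q-negative Ccr7/Fscn1-low Xcr1-negative cells, Lyz2 was unevenly divided, by a split added after the data were seen. Cells with neither a Cd209a UMI (a lectin gene of cDC2) nor 3 B cell marker UMIs had 9539 CPM with R848, 8998 CPM with CpG and 9973 CPM in Control, in 427, 501 and 1599 cells, and Lyz1 at 2.43%, 2.84% and 5.30% of lysozyme UMIs. Cells with Cd209a had 1825 CPM with R848 (39 cells) and 4515 CPM in Control (380 cells), and the 5 CpG cells had 525 CPM. Cells with B cell markers had 830, 583 and 3012 CPM in 81, 45 and 65 cells. Over all cells of the class, the genes with the highest mean rho to Lyz2 were Sec61b (0.622), Pla2g7 (0.584), Csf1r, the receptor for the macrophage growth factor CSF1 (0.527), AW112010 (0.521) and Il1rn (0.518). The lowest were Rac2 (-0.47), Bin1 (-0.37) and Itgb7 (-0.35), and Lyz1 itself was at 0.217, over 547 R848, 551 CpG and 2044 Control cells.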
